A study of Homo sapiens with 6 samples.

Results

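This account compares HCC15 with A427, a pair of established human lung cancer cell lines, over all 6 libraries of the series, 3 for each line. Both lines carry the label of non-small cell lung carcinoma with the genotype given as WT. Each line had 3 arms of 1 library, transfected with a control siRNA called Tax, with LGR6 siRNA 2 or with LGR6 siRNA 4. All cells were grown in RPMI with 5% serum and collected 48 h after transfection. Nothing in the labels tells whether they were separate cultures. No library shared both its line and its siRNA with another. The spread behind the tests was how far the differences between arms varied from line to line, with 2 residual degrees of freedom. Differing siRNA effects, spread between cultures and technical spread cannot be told apart in it.

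Cancer cell lines keep part of the expression programme of the cell they came from and add programmes tied to their mutations. As background, A427 is known to carry an activated beta-catenin (CTNNB1) and to lack functional STK11, the kinase LKB1, and SMARCA4, an ATPase of the SWI/SNF chromatin remodeller. HCC15 is known to carry an activated NRAS, and it is described as squamous in origin. Lung adenocarcinoma cells usually carry NKX2-1 and surfactant genes, and squamous cells carry TP63 and basal keratins. No genotype was read from these data.

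Totals ran from 25546419 to 28987901 reads per library, and 14481 of 23686 genes had at least 10 reads in at least 2 libraries and were tested. Levels are given as CPM, reads scaled to library size with TMM factors, always in the order control, siRNA 2 and siRNA 4. LGR6, the receptor targeted by the siRNAs, had 5, 0 and 0 reads in A427 and 257, 39 and 77 reads in HCC15, so the label of silencing could be checked in HCC15 and not in A427. The lines lay at opposite ends of the first principal component (91.7% of the variance). Of the tested genes, 11073 differed between the lines at an adjusted p under 0.05 (edgeR quasi-likelihood test, Benjamini-Hochberg), a background of 76.5%. This was 5386 genes higher in HCC15 (37.2%) and 5687 higher in A427 (39.3%). The median log2 difference over all tested genes was -0.028, with quartiles of -0.99 and 0.74. The shares of 37.2% and 39.3% are the background for the counts of every list below. Because most genes passed, counts of genes that also lay at least 4-fold apart are given beside many of the lists. Over all tested genes, 1294 were at least 4-fold higher in HCC15 (8.94%) and 1958 in A427 (13.5%).

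Among the genes linked to known mutations, the largest differences were in STK11, SMARCA2, RB1 and MTAP. STK11, which activates AMPK and the salt-inducible kinases, stood at 1.27, 0.801 and 0.507 CPM in A427 and 29.1, 36.4 and 40.6 CPM in HCC15. Every HCC15 library was above every A427 library, and the difference was 40.2-fold (log2 5.33, SE 0.27, adjusted p = 5e-07). SMARCA2, the other ATPase of SWI/SNF, showed 1.4, 0.725 and 0.87 CPM in A427 and 54.5, 53 and 53.5 CPM in HCC15, a 53.3-fold difference. SMARCA4 was lower in A427 too, at 8.25, 8.24 and 8.63 CPM against 18.4, 21.9 and 19.8 CPM, so A427 had the lower level of both ATPases. Both genes passed the threshold (adjusted p = 5.7e-08 and 4.2e-05).

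In the other direction, MTAP, a methionine salvage enzyme whose gene lies beside CDKN2A, reached 282, 235 and 115 CPM in A427 and 4.94, 3.3 and 5.61 CPM in HCC15 (43.3-fold, adjusted p = 1.1e-06). RB1, the retinoblastoma protein that holds back S-phase entry, was at 89.1, 74.8 and 26.6 CPM in A427 and 3.04, 3.54 and 5.5 CPM in HCC15 (log2 -3.84, adjusted p = 4.8e-05). The A427 siRNA 4 library was the lowest of its line for both genes, but it still lay above all HCC15 libraries. Without the A427 or the HCC15 siRNA 4 library the log2 difference of RB1 was -4.63 or -4.60. With the arm in the fit, both values rest on the control and siRNA 2 arms and are not separate checks. The same holds below wherever either line's library of an arm is left out. CDKN2A and CDKN2B, which encode inhibitors of the cyclin D kinases, had 0 reads in all 6 libraries, which allows up to 3 reads in each. Among the nearest genes with reads on either side in the reference order, beside RB1, ITM2B had mean levels of 91.3 CPM in A427 and 75.6 CPM in HCC15 and RCBTB2 1.81 and 6.06 CPM. Beside MTAP, MIR31HG had 12.1 and 1.08 CPM and DMRTA1 2.13 and 10.3 CPM. Beside STK11, SBNO2 had 33.8 and 73.8 CPM and C19orf26 9.12 and 1.58 CPM.

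NRAS, a small GTPase upstream of ERK, was at 172, 124 and 180.4 CPM in A427 and 235, 119.5 and 290.2 CPM in HCC15. The libraries of the lines overlapped, and it passed only narrowly (edgeR adjusted p = 0.0399). NRAS lost its call under 10 of 15 alternative analyses, among them the fits without either line's control or siRNA 4 library. HRAS was higher in A427 (log2 -0.87, adjusted p = 9.9e-05), while BRAF (log2 0.021, SE 0.11) did not pass. CTNNB1 was at 404, 394 and 401 CPM in A427 and 226, 206 and 237 CPM in HCC15, and PIK3CA, the catalytic subunit of PI3-kinase, at 111, 111 and 122 CPM and 25.4, 29.6 and 33.6 CPM. For both genes all A427 libraries lay above all HCC15 libraries. APC, KEAP1 and NFE2L2 did not pass, with log2 differences of 0.097, 0.017 and 0.20. In all, 7 of the 18 tested mutation-linked genes were higher in HCC15 and 7 in A427. Each was 38.9%, near the 37.2% and 39.3% of all tested genes.

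**Figure D1:**
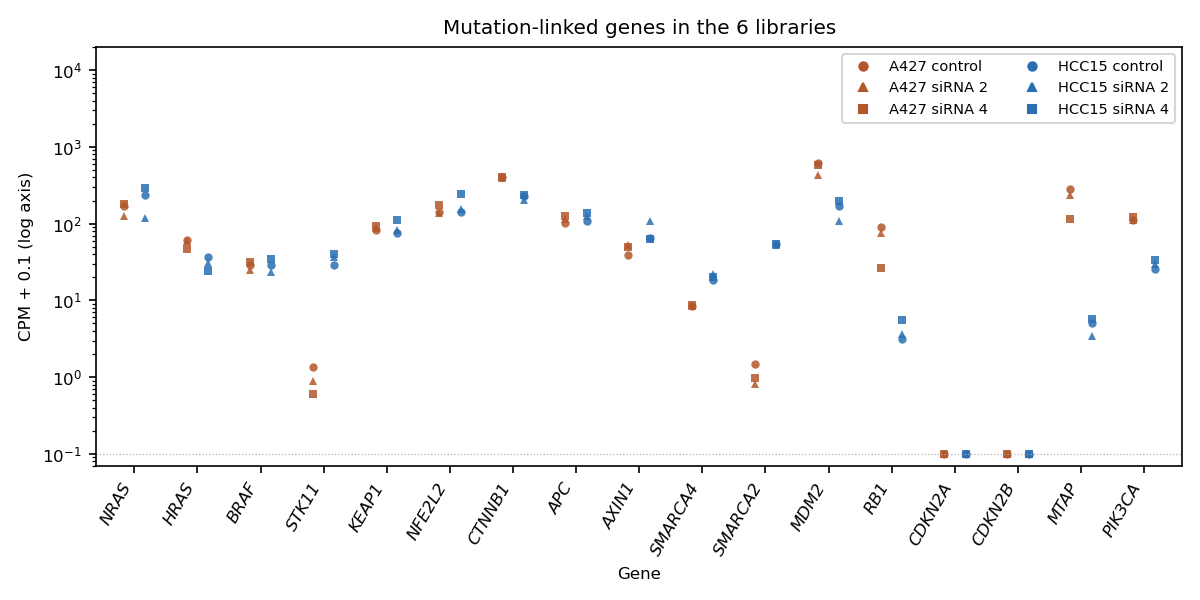
Expression of 17 mutation-linked genes in each library, as CPM + 0.1 on a log axis; colours mark the line and symbols the siRNA, and the dotted line marks 0 reads. STK11 and SMARCA2 sit low in the 3 A427 libraries, MTAP and RB1 sit low in the 3 HCC15 libraries, and CDKN2A and CDKN2B are at 0 in all 6.

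NRF2 target genes were almost all higher in HCC15. NRF2, encoded by NFE2L2 and held back by KEAP1, switches on genes for glutathione, quinone and drug metabolism. Of 27 tested targets, 26 were higher in HCC15 (96.3%, against 37.2% of all tested genes) and 1 in A427, and 17 were at least 4-fold higher in HCC15 and 0 in A427. The 1 higher in A427 was HMOX1, with a log2 ratio of mean CPM + 0.1, HCC15 over A427, of -1.70. Their median log2 difference was 2.68. NQO1, a quinone reductase, was at 248, 325 and 252 CPM in A427 and 1217, 1647 and 1420.0 CPM in HCC15 (5.19-fold, adjusted p = 1.7e-07). GCLM, a subunit of the enzyme that starts glutathione synthesis, had 28.6, 34.7 and 37.7 CPM and 263, 212 and 466 CPM. ABCC2, an exporter of conjugated drugs, had 0.24, 0.267 and 0.145 CPM in A427 and 219.8, 201 and 268 CPM in HCC15. Its relative ABCC3, which was not in this list of targets, had 0, 0.0381 and 0.0362 CPM and 148, 154 and 135 CPM, at least 1341-fold higher. In each case all HCC15 libraries lay above all A427 libraries. ALDH3A1, an aldehyde dehydrogenase, had 0 reads in A427 and 51.3, 66 and 69.3 CPM in HCC15. NR0B1, an orphan nuclear receptor, had 0 reads in A427 and 6.66, 11.6 and 21.2 CPM in HCC15, and TRIM16L differed 49.4-fold. AKR1C1 and AKR1C3 were also higher in HCC15 in all libraries, but reads from these near-identical aldo-keto reductase genes may be split between them. TXNRD1, thioredoxin reductase, differed less, at 879.9, 682 and 1167 CPM and 1342, 771 and 2275 CPM, and its lines overlapped although it passed (adjusted p = 0.00567). NFE2L2 and KEAP1 themselves did not pass, as given above.

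The p53 targets stood the other way. p53 induces genes for arrest, apoptosis and its own degradation. Of 30 tested targets, 21 were higher in A427 (70.0%, against 39.3% of all tested genes), 3 in HCC15 and 6 did not pass, and 9 were at least 4-fold higher in A427 and 0 in HCC15. The median log2 difference was -1.28. MDM2, the ligase that degrades p53, was at 612, 432 and 582 CPM in A427 and 169, 108 and 199 CPM in HCC15. CDKN1A, the p21 inhibitor of cyclin kinases, was at 122, 106 and 123 CPM and 39, 28.4 and 37.8 CPM (3.37-fold, adjusted p = 1.3e-06). BTG2, an antiproliferative gene, was at 69.9, 52.3 and 79.2 CPM and 5.86, 9.47 and 7.25 CPM. CYFIP2 differed 45-fold, EDA2R, a death-domain receptor, 14.8-fold, FDXR, a mitochondrial reductase, 11-fold and TP53INP1 14.9-fold, all higher in A427 in every library. AEN, POLH, RRM2B and TRIAP1 did not pass, with log2 differences of 0.26, 0.024, 0.17 and -0.11.

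Wnt targets and feedback genes were split. Of 22 tested, 10 were higher in HCC15, 11 in A427 and 1 did not pass, with 6 and 3 at least 4-fold apart. AXIN2, a feedback inhibitor that is widely used as a readout of beta-catenin, was at 335, 249 and 303 CPM in A427 and 88.3, 81.1 and 81.2 CPM in HCC15 (adjusted p = 9.8e-07). DKK1, a secreted Wnt antagonist, was at 1098, 989.7 and 999 CPM in A427 and 48.7, 65.8 and 50.7 CPM in HCC15 (18.8-fold). Other secreted or cytoplasmic inhibitors had the opposite order. NKD1 was at 42.7, 21.8 and 32.4 CPM in A427 and 578, 356 and 419 CPM in HCC15, NOTUM, which removes the lipid of Wnt proteins, at 5, 4.08 and 5.51 CPM and 123, 83.4 and 56.4 CPM, and WIF1, which binds them, at 0.103, 0.0763 and 0.471 CPM and 99.6, 26.4 and 92.4 CPM. LGR5, a sister receptor of LGR6, had 0.0342, 0.0381 and 0 CPM in A427 and 9.32, 10.6 and 5.26 CPM in HCC15, at least 77.3-fold higher. WIF1 was lowest in the HCC15 siRNA 2 library, and NOTUM in the HCC15 siRNA 4 library, but neither reached the range of A427.

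CREB and CRTC targets, which salt-inducible kinases downstream of STK11 are known to restrain, were also split, with 7 of 16 higher in HCC15 and 9 in A427. SIK1 itself, a salt-inducible kinase, was at 4.9, 14.4 and 14.5 CPM in A427 and 669.8, 1072 and 611 CPM in HCC15 (72.9-fold). LINC00473, a noncoding RNA induced through CRTC, was at 0.0342, 0.0381 and 0 CPM and 26, 37 and 11.7 CPM, at least 229-fold higher in HCC15. CPS1, which makes carbamoyl phosphate in the urea cycle, was at 108, 118 and 156 CPM in A427 and 0.342, 0.386 and 0.624 CPM in HCC15. AREG, a ligand of the EGF receptor, was at 831, 1041 and 681 CPM and 4.83, 2.98 and 5.38 CPM, and PTGS2, the inducible cyclooxygenase, at 24.2, 43.4 and 55 CPM and 1.67, 1.44 and 0.896 CPM. These 3 genes were higher in A427 in all libraries, with adjusted p of 3.8e-09, 6.8e-08 and 1.6e-06. Within A427 the control library had the lowest SIK1 level.

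Of 20 genes that report ERK activity, 9 were higher in HCC15, 8 in A427 and 3 did not pass, and the median log2 difference was 0.15. DUSP4, a phosphatase that switches ERK off, was the 1 member at least 4-fold apart, at 7.19, 4.96 and 6.24 CPM in A427 and 169, 143 and 149.7 CPM in HCC15. IER3 was higher in HCC15 as well (log2 1.69), and SPRY2, a feedback inhibitor of receptor signalling, was higher in A427 (log2 -1.46). EGR1, an immediate early factor, was at 73.6, 121 and 89 CPM in A427 and 22.6, 7.71 and 73.2 CPM in HCC15. It passed (adjusted p = 0.0145), but the log2 ratio in single arms ran from -3.95 with siRNA 2 to -0.28 with siRNA 4, and the call was lost without either control library or without the siRNA arm in the fit. Its log2 difference of -1.87 was -0.98 or -0.97 without the A427 or the HCC15 siRNA 2 library and -2.78 or -2.75 without the A427 or the HCC15 siRNA 4 library. FOSL1, SPRY1 and SPRY4 did not pass.

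YAP and TAZ are co-activators that the Hippo kinases hold back. Of 24 tested targets, 17 were higher in HCC15 (70.8%), 4 in A427 and 3 did not pass, with 7 and 0 at least 4-fold apart and a median log2 difference of 1.38. ANKRD1 was at 0.103, 0.0763 and 0.0362 CPM in A427 and 397, 271 and 164 CPM in HCC15, at least 2550.0-fold higher. THBS1, a matrix glycoprotein, was at 2.84, 1.64 and 2.32 CPM and 243, 254 and 168 CPM. TGFB2 differed 43.7-fold, F3, the tissue factor of clotting, 8.06-fold, and IGFBP3 53.6-fold, all higher in HCC15. CTGF, a matricellular protein and a standard target, went the other way, at 1543, 1252 and 730.2 CPM in A427 and 688, 254 and 233 CPM in HCC15 (log2 -1.70, adjusted p = 5.2e-05). The other members higher in A427 were AMOTL2, DLC1 and FOXF2, with log2 differences of -1.19, -1.70 and -1.99. AJUBA, LATS2 and WWC1, which act in the Hippo pathway itself, did not pass, with log2 differences of -0.35, -0.21 and -0.053.

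Of 25 tested SWI/SNF subunits, the ATPases included, 12 were higher in HCC15 and 11 in A427, with SMARCA2 the 1 member at least 4-fold apart. These were 48.0% and 44.0%, against 37.2% and 39.3% of all tested genes. PHF10 (log2 1.89), DPF2 (log2 1.21) and BRD7 (log2 1.13), subunits of particular SWI/SNF assemblies, were higher in HCC15, and ACTL6A, an actin-like subunit, was higher in A427 (log2 -1.26). Without the siRNA arm in the fit, 7 subunits were higher in HCC15 and 4 in A427, and without the HCC15 siRNA 4 library 7 were higher in A427.

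**Figure D2:**
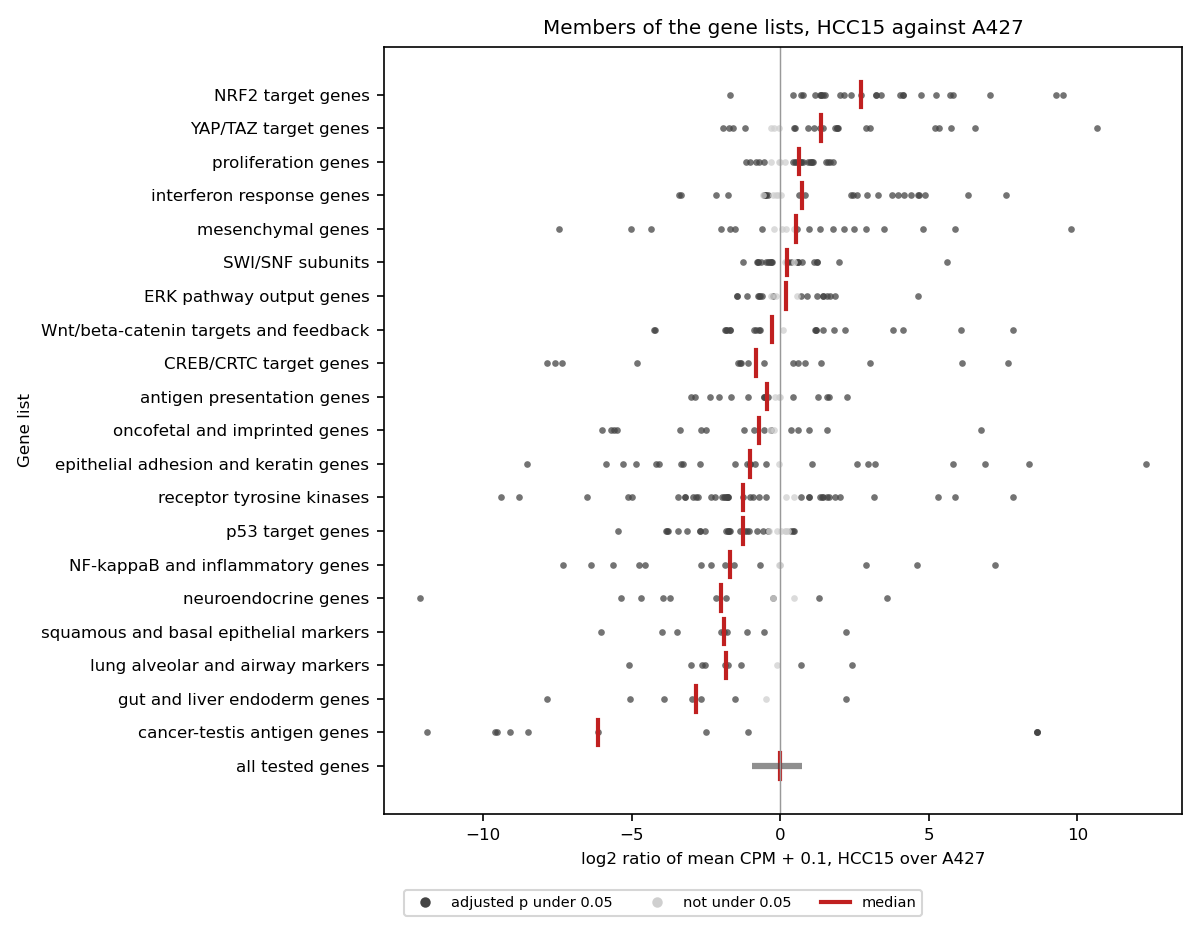
Log2 ratio of mean CPM + 0.1, HCC15 over A427, for the tested members of 20 gene lists; each dot is 1 gene, dark where it passed the threshold, red bars are medians, and the bottom line gives the median and quartiles of all 14481 tested genes. NRF2 targets lie almost wholly to the right of 0 and p53 targets mostly to the left, while Wnt, CREB and ERK genes lie on both sides.

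Defining markers of lung epithelium were at or near 0 in both lines. SFTPB, SFTPC and SCGB1A1, secreted products of alveolar and club cells, had 0 reads in all 6 libraries. NKX2-1, the lung lineage factor, had 1, 2 and 3 reads in A427 and 0 in HCC15. Summed over 6 lung epithelium markers, the level was 0.906 to 1.44 CPM in A427 and 0 to 0.175 CPM in HCC15. The wider list of alveolar and airway genes had 10 tested members, of which 2 were higher in HCC15 and 7 in A427. The 2 fell to 1 under 9 of 15 alternatives, among them the fits without the control or the siRNA 2 library of either line, and the 7 fell to 4 with a minimum of 50 reads. LAMP3, a lysosomal protein of alveolar type II cells, was at 85.3, 85.6 and 92.8 CPM in A427 and 12, 12.7 and 7.6 CPM in HCC15, and FOXA1, a pioneer factor of endoderm, at 7.12, 6.25 and 8.12 CPM and 38.9, 32.4 and 44.5 CPM.

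The defining squamous markers were at or near 0 in HCC15, which goes against its description as squamous. KRT14 had 0 reads in all libraries, and KRT5, TP63 and DSG3 had 0 reads in all HCC15 libraries. Summed over 6 squamous markers, the level was 0.0779 to 0.304 CPM in HCC15 and 1.68 to 3.3 CPM in A427. Of 9 tested squamous and basal genes, 1 was higher in HCC15 and 8 in A427, and the 1 fell to 0 without the HCC15 control or the HCC15 siRNA 4 library. DSC3, a desmosomal cadherin, was at 81.3, 50 and 53.9 CPM in A427 and 0.799, 1.12 and 0.585 CPM in HCC15. SFN, the stratifin adaptor, was at 259.5, 301 and 216 CPM and 69.5, 63.3 and 61.9 CPM, and SOX2, a factor of basal cells and stem cells, at 1.68, 1.79 and 3.26 CPM and 0.0761, 0.0701 and 0 CPM. HCC15 is called by its name here and not as a squamous line.

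Keratins of simple epithelium were higher in HCC15. KRT7 was at 0, 0.0381 and 0.145 CPM in A427 and 866, 1066 and 498 CPM in HCC15. KRT8 had 295, 294 and 212 CPM and 2167, 2834 and 1254 CPM, and its partner KRT18 253, 231 and 184 CPM and 2137, 2452 and 1428 CPM (7.48-fold and 8.86-fold, adjusted p = 4.7e-07 and 1.1e-07). KRT19 was at 0.205, 0.229 and 0.109 CPM in A427 and 16.3, 22.4 and 8.26 CPM in HCC15, and KRT80 differed 149-fold. In all 4 keratins with values here, the HCC15 siRNA 4 library was the lowest of its line and still above A427. Of 11 tested keratin genes, 10 were higher in HCC15 and 1 in A427, with 8 and 1 at least 4-fold apart. The 1 was KRT15, with 23, 2 and 18 reads in A427 and 2 in each HCC15 library, and it was not called without the A427 control or the A427 siRNA 4 library, with DESeq2, on either TPM scale or with a minimum of 50 reads. KRT81 and KRT86 were among those higher in HCC15, but reads from these near-identical hair keratin genes may be split between copies.

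Other epithelial genes divided between the lines. Of 24 epithelial adhesion and keratin genes, 8 were higher in HCC15, 15 in A427 and 1 did not pass, with 7 and 9 at least 4-fold apart. EPCAM, a surface adhesion molecule, was at 335, 321 and 294 CPM in A427 and 30.7, 39.3 and 22.6 CPM in HCC15 (10.5-fold higher in A427). ESRP1, which controls epithelial splicing, was at 108, 74.3 and 62.1 CPM and 0.19, 0.105 and 0.0779 CPM, and CLDN1, a tight junction claudin, at 873, 942 and 788 CPM and 12.1, 19.6 and 12.9 CPM. CLDN4, another claudin, had the reverse order, with 0.548, 0.114 and 0.362 CPM in A427 and 43.2, 48.2 and 66.5 CPM in HCC15. CDH1, E-cadherin, was at 7.63, 7.7 and 6.92 CPM in A427 and 19.5, 102 and 14.1 CPM in HCC15. It was called higher in HCC15 (adjusted p = 0.00299), and the HCC15 siRNA 2 library was the highest by far, so that the log2 ratio was 1.34 in the control arm, 3.71 with siRNA 2 and 1.02 with siRNA 4. Over all arms it was 2.08, and 1.19 or 1.20 without the A427 or the HCC15 siRNA 2 library. MAL2 was at least 37.5-fold higher in A427.

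Mesenchymal genes were likewise mixed: of 22 tested, 11 were higher in HCC15, 7 in A427 and 4 did not pass. At least 4-fold higher were 7 in HCC15 and 3 in A427. VIM, vimentin, was at 5147, 4013 and 5175 CPM in A427 and 1355, 1495 and 1536 CPM in HCC15 (log2 -1.70, adjusted p = 4.2e-06). COL3A1, a fibrillar collagen, was at 189, 226 and 246 CPM and 0.837, 1.4 and 1.21 CPM, CDH11, a mesenchymal cadherin, at 20.9, 19.7 and 22.1 CPM and 0.418, 0.526 and 0.701 CPM, and TWIST1, a factor of epithelial-mesenchymal transition, at 15.6, 20.6 and 24.3 CPM and 0.76, 1.23 and 0.701 CPM. AXL, a receptor kinase tied to mesenchymal states, was at 9.11, 2.78 and 5.18 CPM in A427 and 383, 285 and 359 CPM in HCC15. TGFBI, a matrix protein induced by TGF-beta, was at 0.103, 0 and 0 CPM and 124, 134 and 95 CPM, at least 1083-fold higher in HCC15. FBN1, PDGFRB, TWIST2 and ZEB2 did not pass. Markers of fibroblasts summed to 242 to 303 CPM in A427 and 16.1 to 21.4 CPM in HCC15. Of these 7 markers, DCN had 0 reads in all libraries, COL1A2 at most 3 reads, and FAP, a surface protease, 23.4, 11.1 and 26 CPM in A427 and 0 reads in HCC15. Leukocyte markers summed to 22.7 to 27.3 CPM in A427 and 3.99 to 5.26 CPM in HCC15, and CD68 gave most of the sum in A427. Of 3 tested leukocyte markers, 2 were higher in A427 and 1 in HCC15. The 1 was CD14, at 0.171, 0.0763 and 0.0725 CPM in A427 and 2.09, 1.65 and 1.715 CPM in HCC15. CD3E, MS4A1 and LYZ had 0 reads in all libraries, while PTPRC had 3.63, 2.75 and 3.62 CPM in A427 and 0 reads in HCC15. Endothelial markers summed to at most 1.13 CPM. The part of other cells in these levels was not tested, and in bulk libraries a lower level in every cell and expression in fewer cells cannot be told apart.

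Several neuroendocrine and gut genes were higher in A427. GCG, which encodes the glucagon precursor of pancreatic alpha cells and intestinal L cells, was at 448, 504 and 375 CPM in A427 and had 0 reads in HCC15, at least 3950.0-fold lower. SYP, a vesicle protein, was at 17.2, 16.7 and 19.3 CPM and 0.913, 0.877 and 1.4 CPM, SYT1, the synaptotagmin calcium sensor, at 54.7, 46.4 and 54 CPM and 1.9, 2.24 and 1.6 CPM, and CHGB, a granule protein, at 8.49, 8.12 and 9.68 CPM and 0.152, 0.0351 and 0.156 CPM. Of 12 tested neuroendocrine genes, 8 were higher in A427, 2 in HCC15 and 2 did not pass. ENO2, a neuronal enolase, was an exception, at 5.31, 5.03 and 2.83 CPM in A427 and 66.6, 45.6 and 49.3 CPM in HCC15. Of 8 tested gut and liver endoderm genes, 6 were higher in A427, 1 in HCC15 and 1 did not pass, and with a minimum of 50 reads 3 were higher in A427 and 0 in HCC15. CDX2, the intestinal homeobox factor, was at 4.55, 2.86 and 4.1 CPM and 0.19, 0.14 and 0.156 CPM, and ONECUT2, a liver and pancreas factor, at 35.8, 22.2 and 45.9 CPM and 0.684, 0.491 and 1.64 CPM. The summed level of the 30 endoderm genes was 147 to 210.1 CPM in A427 and 3.08 to 4.44 CPM in HCC15. Most of the A427 sum came from CPS1, a urea cycle enzyme, at 108, 118 and 156 CPM, and from ONECUT2. Of the 30, 11 had 0 reads in all libraries, and the liver and gut products ALB, AFP, APOA1 and CDH17 had at most 1 read in any library.

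**Figure D3:**
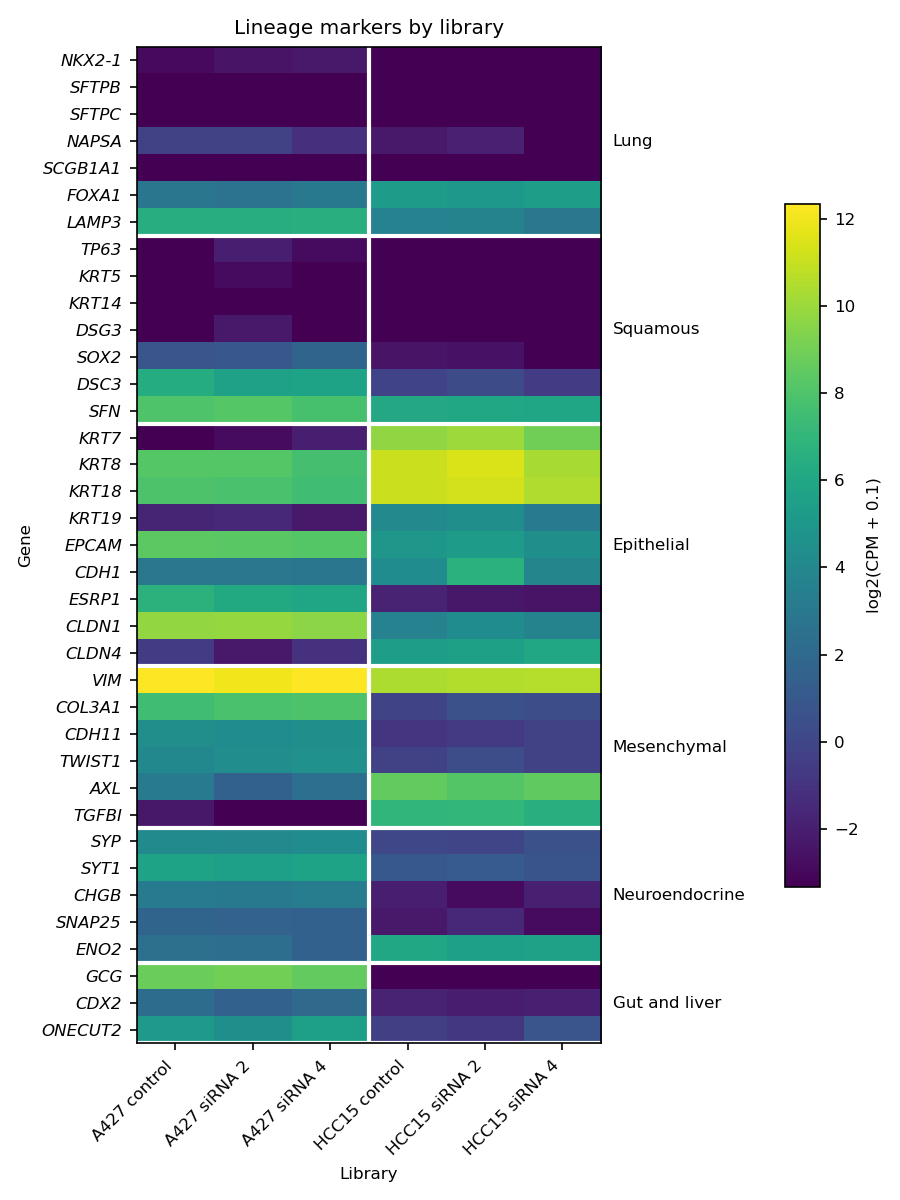
Lineage markers as log2(CPM + 0.1), with 1 row per gene and 1 column per library, A427 on the left and HCC15 on the right. NKX2-1, SFTPB, SFTPC, SCGB1A1, TP63, KRT5, KRT14 and DSG3 are dark in both lines. LAMP3 and DSC3 are brighter in A427, FOXA1 is brighter in HCC15, and SFN is bright in both. The simple keratins are brighter in HCC15, and COL3A1, the vesicle genes and GCG are brighter in A427.

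A total of 344 genes were restricted to A427 (1.45% of the 23686 in the table) and 257 to HCC15 (1.09%), where restricted means at least 1 CPM in all 3 libraries of a line and at most 3 reads in every library of the other. Of these, 122 and 89 had a mean of at least 10 CPM, and 13 and 12 a mean of at least 100 CPM. In 171 and 111 of them the other line had 0 reads throughout. Folds for such genes are lower bounds, set against 3 reads per library (0.103 to 0.117 CPM).

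The largest bound among the genes of A427 was that of SERPINB2, plasminogen activator inhibitor 2, at 2069, 1749 and 1620.0 CPM against 0 reads in HCC15, at least 16180.0-fold. OLR1, a receptor for oxidised lipoprotein, was at 352, 322 and 288 CPM, at least 2860.0-fold. DTNA, a dystrobrevin, stood at 183, 108 and 146 CPM, MMRN1, multimerin, at 183, 118 and 140.3 CPM, and WNT16, a Wnt ligand, at 142, 110.4 and 108 CPM. LRRTM4 and SLITRK3, which organise synapses, were at 142, 138 and 98.5 CPM and 88.8, 106 and 77.3 CPM. MYH15 and GPR15 had at least 1219-fold and 1025-fold higher levels. In HCC15 these genes had at most 3 reads in any library. MME, the neprilysin peptidase, narrowly missed the definition through 4 reads in the HCC15 siRNA 2 library, with 2733, 2246 and 1992 CPM in A427.

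GRAMD1B, a sterol transporter of the endoplasmic reticulum, had the largest bound among the genes of HCC15, at 673, 319 and 446 CPM and at least 4415-fold higher. MALL, a raft protein, was at 211, 231 and 315 CPM, and PRKCSH, the beta subunit of glucosidase II, which trims glycoproteins in the endoplasmic reticulum, at 181, 188 and 195 CPM (at least 1730.0-fold). BHMT2, a methyltransferase of methionine metabolism, was at 129, 155 and 217 CPM and PLAU, the urokinase that SERPINB2 inhibits, at 129, 195 and 103 CPM. ALDH1L2, a mitochondrial folate enzyme, ranged across arms, at 200.4, 126 and 66.8 CPM, and the siRNA 4 library was the lowest. MCAM and TNS4, an adhesion molecule and a focal adhesion protein, were at 118, 158 and 52.9 CPM and 96.1, 169 and 44.5 CPM. MT1E, a metallothionein, stood at 109, 113 and 86.3 CPM, though metallothionein reads may be split between near-identical genes. BTBD6 and SMIM10 had 0 reads in all A427 libraries, with 55.7, 68.1 and 59.4 CPM and 31.2, 22 and 48.2 CPM in HCC15.

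A pair of restricted genes of HCC15 that most human cells express were singled out after their values were seen. MGMT, which repairs alkylated guanine, had 0 reads in A427 and 24.9, 20.9 and 24.8 CPM in HCC15. PRDX2, a cytosolic peroxiredoxin, had 0.103, 0 and 0 CPM in A427 and 95.5, 94 and 79.3 CPM in HCC15. These levels were at least 217-fold and 825-fold higher in HCC15. Beside MGMT, MKI67 had means of 707.4 CPM in A427 and 1429 CPM in HCC15 and EBF3 0.156 and 1.87 CPM. Beside PRDX2, JUNB had 109 and 11.4 CPM and RNASEH2A 51.6 and 28.2 CPM. Beside PRKCSH, RGL3 had 19.4 and 5.38 CPM and ZNF653 5.5 and 2.5 CPM.

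The promoters of these genes and of SERPINB2 and GCG are shown as examples of genes with few or no reads in 1 line, chosen after their base composition was seen. Each is the 250 bases before the RefSeq gene start on GRCh38.p14, 5′ to 3′ on the gene's strand, and capitals mark each CG, the dinucleotide that DNA methylation acts on, which reads the same on both strands. The windows are chr10:129466991-129467240 on the plus strand for MGMT, chr19:12801801-12802050 on the minus strand for PRDX2, chr18:63887455-63887704 on the plus strand for SERPINB2 and chr2:162152248-162152497 on the minus strand for GCG.
MGMT: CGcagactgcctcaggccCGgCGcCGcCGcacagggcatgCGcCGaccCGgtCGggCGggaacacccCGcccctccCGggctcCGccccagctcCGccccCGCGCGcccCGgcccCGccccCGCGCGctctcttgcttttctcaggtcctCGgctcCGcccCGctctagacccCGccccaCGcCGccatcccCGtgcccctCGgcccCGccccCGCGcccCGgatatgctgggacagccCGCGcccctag
PRDX2: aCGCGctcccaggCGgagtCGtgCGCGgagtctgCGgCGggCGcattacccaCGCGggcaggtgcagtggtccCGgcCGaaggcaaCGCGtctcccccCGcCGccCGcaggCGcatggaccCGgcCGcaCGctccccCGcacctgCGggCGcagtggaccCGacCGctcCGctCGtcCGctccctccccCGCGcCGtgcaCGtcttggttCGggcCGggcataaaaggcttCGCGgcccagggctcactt
SERPINB2: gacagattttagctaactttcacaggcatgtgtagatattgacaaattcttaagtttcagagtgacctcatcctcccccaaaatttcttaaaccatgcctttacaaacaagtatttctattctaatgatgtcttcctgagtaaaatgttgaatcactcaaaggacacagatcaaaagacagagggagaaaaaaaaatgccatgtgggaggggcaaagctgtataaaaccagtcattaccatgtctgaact
GCG: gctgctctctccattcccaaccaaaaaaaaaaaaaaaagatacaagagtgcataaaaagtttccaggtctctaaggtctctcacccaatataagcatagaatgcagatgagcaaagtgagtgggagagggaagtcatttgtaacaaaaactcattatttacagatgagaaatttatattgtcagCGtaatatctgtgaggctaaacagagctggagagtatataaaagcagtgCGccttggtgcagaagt
MGMT held 36 CG and PRDX2 38, while SERPINB2 held 0 and GCG 2. Of the 16009 genes of the table with a promoter of this length in the reference, 57.3% held at least 15 CG and 3.19% held 0. Among the 11233 of these that were tested, as all restricted genes were, the shares were 73.0% and 0.783%, with a median of 21 CG. Over all restricted genes the lines were close to each other and below the tested genes. At least 15 CG stood in 51.7% of the promoters of genes restricted to A427 and 52.0% of those restricted to HCC15, with medians of 15 and 16. Methylation was not measured here, and the reference build differs from the hg19 build of the counts, so these are descriptions of the reference sequence only.

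Along the chromosomes, among genes with at least 1 CPM in all libraries of a line, there were 10 runs of at least 3 neighbouring genes restricted to the same line, 9 of A427 and 1 of HCC15, with 47 genes in all. On chromosome 2 the A427 run held HOXD9, HOXD8, HOXD-AS2, HOXD4 and HOXD3. On chromosome 5 there were 2 runs of protocadherins and 1 that held GABRB2, a GABA receptor subunit, with a mean level of 1.34 CPM in A427 and 0 reads in HCC15. A chromosome 18 run held KLHL14, ASXL3 and DTNA, with means of 17.9, 3.49 and 146 CPM. On chromosome X the A427 runs held cancer-testis genes, CT45 copies with SAGE1 and MAGEA with CSAG copies and GABRA3. The HCC15 run held MT1E, MT1M and MT1A on chromosome 16. The remaining runs were SPRR2 copies on chromosome 1 and TP53TG3 copies with HERC2P4 and SLC6A10P on chromosome 16. In the CT45, MAGEA, CSAG, SPRR2, TP53TG3 and MT1 genes reads may be split between near-identical copies, so their single values are uncertain.

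Clustered protocadherins are adhesion proteins of neurons and some epithelia. Of 25 tested, 24 were higher in A427, 0 in HCC15 and 1 did not pass, and 19 were at least 4-fold higher in A427. Of these 25, 17 had at most 3 reads in each HCC15 library, against 1074 of all 14481 tested genes at that floor in 1 line. Those 17 met the minimum of 10 reads only through A427, so their direction was set by that minimum. The 55 genes summed to 102 to 126 CPM in A427 and 7.4 to 11.4 CPM in HCC15, and 13 of the 25 tested were restricted to A427. PCDHGA11 was at 8.53, 14.2 and 10.5 CPM, PCDHA11 at 9.11, 11.9 and 12.4 CPM and PCDHB2 at 6.06, 5.19 and 9.54 CPM in A427, with at most 1 read per library in HCC15. PCDHGC3 was at 1.06, 2.97 and 1.16 CPM in A427 and 1.03, 3.02 and 1.05 CPM in HCC15 and did not pass. The median log2 difference was -6.49, or -3.89 with genes at 3 reads or fewer in HCC15 set at their bound. The variable exons of the PCDHA genes share downstream exons, as do those of the PCDHG genes, so reads may be split between members of these clusters.

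HOX genes, which keep a record of position along the body axis, differed in both directions. Of 33 tested, 12 were higher in HCC15, 15 in A427 and 6 did not pass, with 8 at least 4-fold apart in each direction. HOXD8 was at 26.3, 24.7 and 36.2 CPM in A427 and HOXD9 at 27.7, 25.7 and 36 CPM, with 0 reads in HCC15 for both, at least 259.5-fold and 266-fold lower. HOXB13 was at 3.25, 2.63 and 3.19 CPM in A427 and 0 in HCC15. In the other direction HOXC10 was at 0.205, 0.114 and 0.435 CPM in A427 and 36.7, 37.4 and 36.2 CPM in HCC15, and HOXA11 at 0.0685, 0.0763 and 0.0362 CPM and 6.84, 5.43 and 6.82 CPM. HOXA9, HOXB3, HOXC9 and HOXC13 did not pass, and their libraries overlapped between the lines.

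**Figure D4:**
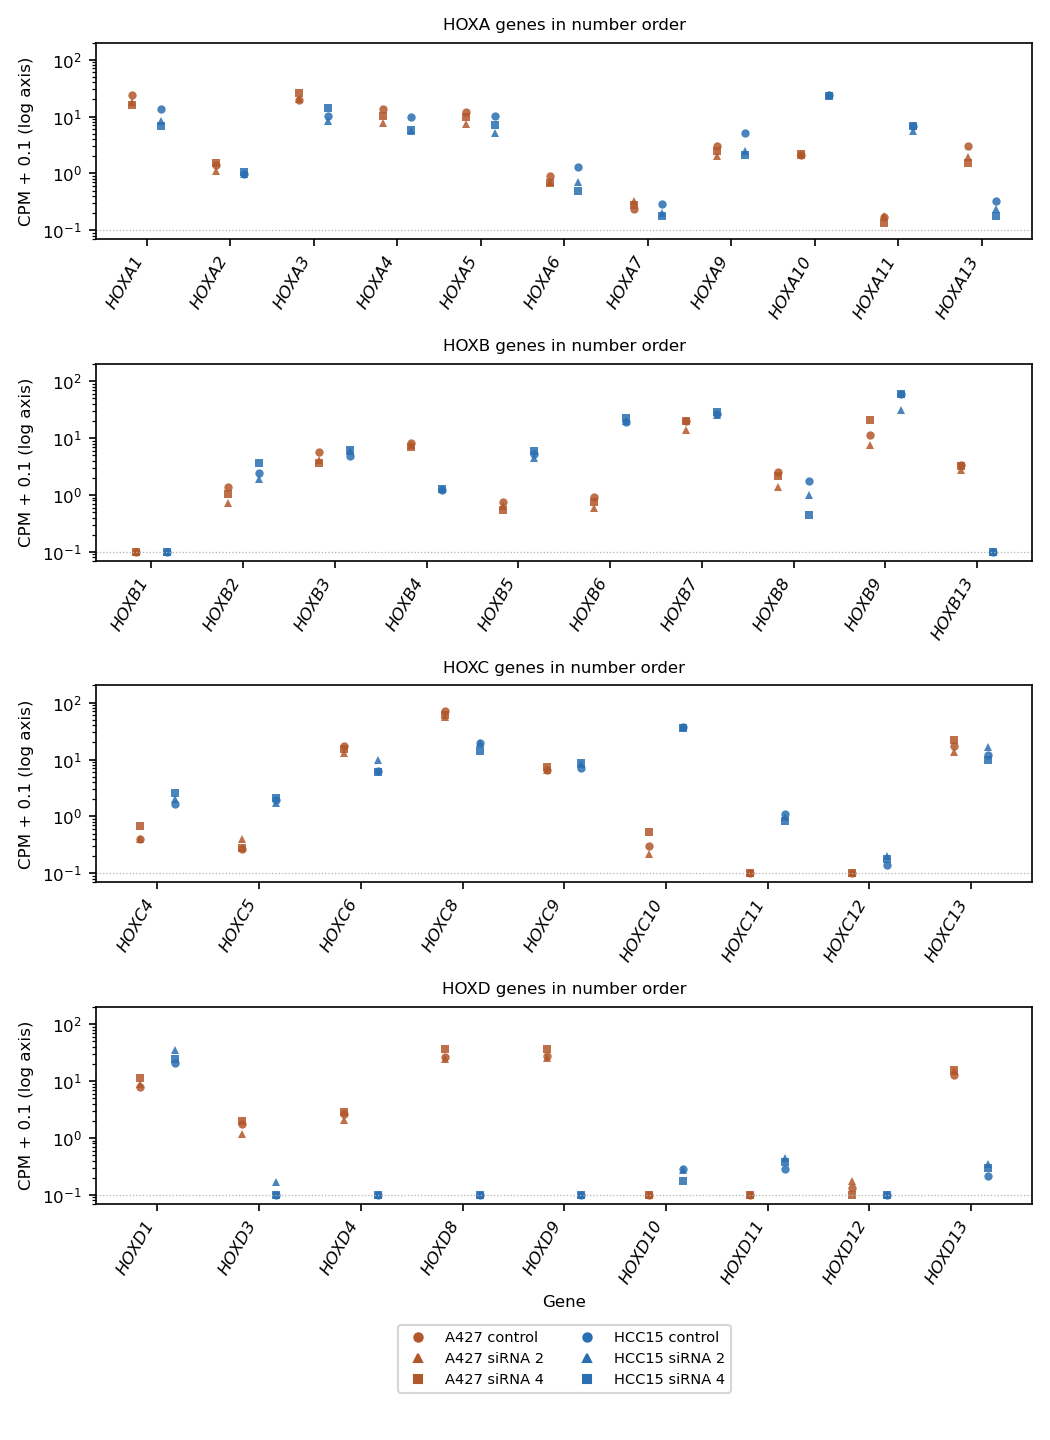
HOX genes of the 4 clusters in number order, as CPM + 0.1 on a log axis in each library; colours mark the line, symbols the siRNA, and the dotted line 0 reads. The HOXD genes from HOXD3 to HOXD9 have reads in A427 and 0 or nearly 0 in HCC15, while HOXC10 and HOXA11 are higher in HCC15.

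Cancer-testis antigen genes, which are mostly limited to the germ line in normal tissue, were read in both lines. Of 11 tested, 8 were higher in A427 and 3 in HCC15. Of these 11, 10 had at most 3 reads in each library of 1 line and met the minimum of 10 reads only through the other line. Their direction was set by that minimum. MAGEA4 was at 375, 393 and 379.7 CPM in A427 with 0 reads in HCC15, at least 3414-fold. SAGE1 was at 121, 93.8 and 109.8 CPM in A427 with 0 reads in HCC15. The 3 members higher in HCC15 were copies of XAGE1, listed with the same values and 0 reads in A427, so they are 1 observation. PRAME was present in both lines, at 101, 100.5 and 116 CPM in A427 and 44.8, 42.1 and 61.1 CPM in HCC15 (log2 -1.12, adjusted p = 2e-05). Oncofetal genes also split within a pair. LIN28A, an RNA-binding protein that blocks let-7 maturation, was at 0.0685, 0 and 0 CPM in A427 and 15.3, 20.6 and 3.58 CPM in HCC15, and LIN28B at 10.9, 7.32 and 2.9 CPM and 0, 0.105 and 0.039 CPM. Each line had more than 3 reads of only 1 of the pair, and the siRNA 4 library was the lowest for LIN28A in HCC15 and for LIN28B in A427. SALL4, a stem cell factor, was at 52.6, 37.1 and 31 CPM in A427 and 0.723, 0.736 and 0.117 CPM in HCC15, and GPC3, a glypican, at 9.18, 12.7 and 12.5 CPM and 0.152, 0.245 and 0.0779 CPM. Of 18 tested oncofetal and imprinted genes, 11 were higher in A427, 5 in HCC15 and 2, HMGA1 and IGF2BP1, did not pass.

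Receptor tyrosine kinases showed different sets. Of 41 tested, 25 were higher in A427, 14 in HCC15 and 2 did not pass, with 14 and 6 at least 4-fold apart. The shares were 61.0% and 34.1%, against 39.3% and 37.2% of all tested genes. EPHA5 was at 68.8, 55.2 and 80.1 CPM in A427 with 0 reads in HCC15, and EPHA7 at 105, 71.9 and 152 CPM and 0.0761, 0.14 and 0.234 CPM, both receptors of the ephrin system. FLT3, a receptor of blood progenitors, was at 9.14, 7.32 and 7.87 CPM and 0.152, 0.175 and 0.0779 CPM. KIT, the stem cell factor receptor, was at 0.103, 0.152 and 0.0362 CPM in A427 and 52.4, 55.7 and 27.6 CPM in HCC15, beside AXL above. ERBB3 did not pass, at 11.7, 12.1 and 13.4 CPM in A427 and 8.48, 23.5 and 10 CPM in HCC15, and it was the HCC15 siRNA 2 library that stood high.

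Interferon genes leaned to HCC15 in number but not in sum. Of 30 tested, 16 were higher in HCC15, 9 in A427 and 5 did not pass, with 14 and 3 at least 4-fold apart. IFITM1, a membrane protein that blocks viral entry, was at 0.24, 0.114 and 0.362 CPM in A427 and 81.8, 52.5 and 62.1 CPM in HCC15, and IFI44 at 0.24, 0.114 and 0.326 CPM and 17.5, 21.9 and 38.3 CPM. IFIT3 was at 0.171, 0 and 0.109 CPM and 3.84, 6.28 and 6.35 CPM and IFI27 at 0.171, 0 and 0.0725 CPM and 3.08, 2.94 and 3.43 CPM. ISG15, IFI6, IRF7 and DDX58 did not pass, with log2 differences of -0.076, -0.15, 0.021 and -0.56. The list summed to 1044 to 1140.0 CPM in A427 and 698 to 719 CPM in HCC15.

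Of 18 antigen presentation genes, 10 were higher in A427, 5 in HCC15 and 3 did not pass. PSMB9, an immunoproteasome subunit, was at 29.3, 31.5 and 31.9 CPM in A427 and 3.54, 4.52 and 3.35 CPM in HCC15, and TAPBP, tapasin, at 311, 339 and 253 CPM and 105, 105 and 77.6 CPM. PSMB8, the partner subunit of PSMB9, did not pass (log2 -0.17, SE 0.14), nor did ERAP1 (log2 -0.06). NLRC5, a transactivator of class I genes, was higher in HCC15 (log2 1.64, adjusted p = 0.0016). Reads from HLA genes may be split between related loci, so those genes are not given values.

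NF-kappaB and inflammatory genes were mostly higher in A427, with 10 of 16 higher there (62.5%, against 39.3% of all tested genes). Another 3 were higher in HCC15 and 3 did not pass. At least 4-fold higher were 8 in A427 and 3 in HCC15. BIRC3, an inhibitor of apoptosis and NF-kappaB target, was at 3134, 2274 and 2717 CPM in A427 and 18.8, 16.1 and 15.9 CPM in HCC15 (159-fold, adjusted p = 2.3e-09). CCL20, a chemokine, was at 6.37, 8.05 and 9.93 CPM in A427 with 0 reads in HCC15, and CXCL1, another, was at 3.35, 11.8 and 8.7 CPM and 0.114, 0.0351 and 0.039 CPM. CSF1, the macrophage colony stimulating factor, was at 14, 18.2 and 11.9 CPM in HCC15 with 0 reads in A427, and CCL2 at 0, 0 and 0.0362 CPM and 2.89, 2.35 and 2.69 CPM. NFKBIA, the feedback inhibitor of NF-kappaB, did not pass, at 57.6, 78.1 and 95.9 CPM and 71.3, 91 and 62.7 CPM, and neither did IL8 or IL32. The A427 control library had the lowest levels of CXCL1 and CCL20 in its line.

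Proliferation genes were modestly higher in HCC15: 16 of 25 were higher there (64.0%, against 37.2% of all tested genes). Another 5 were higher in A427 and 4 did not pass, with 0 at least 4-fold apart in either direction. CCNB2, a mitotic cyclin, was at 38.1, 38 and 34.7 CPM in A427 and 132, 125 and 124 CPM in HCC15. PLK1, a mitotic kinase, was at 69.1, 94.3 and 67 CPM and 197, 269 and 241 CPM, and CENPF, a kinetochore protein, at 226, 273 and 252 CPM and 730.5, 712 and 761 CPM. TYMS, thymidylate synthase, was higher in A427 (log2 -1.14). AURKA, CCNA2, MCM5 and MCM6 did not pass. Replication-dependent histone genes, whose messages mostly lack poly(A) tails and so can mark how RNA was selected, moved with this list: 8 of 12 were higher in HCC15 and 1, HIST2H2BE, in A427. The 8 fell to 5 without the A427 siRNA 2, the HCC15 siRNA 2 or the HCC15 siRNA 4 library. The histone genes summed to 59.6 to 101.1 CPM in A427 and 180.0 to 199.8 CPM in HCC15. The part of RNA selection in the proliferation result was not tested.

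Other gene families had values on both sides. Of 461 tested ZNF zinc finger genes, 153 were higher in HCC15 and 169 in A427, but 44 and 25 were at least 4-fold apart and 21 and 6 were restricted. ZNF532 was at 0, 0.0381 and 0 CPM in A427 and 46.8, 70.5 and 64.8 CPM in HCC15, and ZNF880 at 23.5, 23 and 29.5 CPM and 0, 0 and 0.039 CPM. Of 25 collagen genes, 11 were higher in HCC15 and 14 in A427. COL4A6, a basement membrane chain, was at 0.205, 0.114 and 0.217 CPM and 140.1, 173 and 151 CPM, and COL5A2, a fibrillar chain, at 579, 648 and 606 CPM and 2.62, 4.17 and 3.43 CPM. Of 23 integrin genes, 8 and 11 were higher in HCC15 and A427, among them ITGA2, a collagen receptor chain, at 226, 390.0 and 234 CPM in A427 and 10.2, 27.1 and 7.75 CPM in HCC15. ITGB1, the common beta chain, did not pass (log2 -0.10, SE 0.13). Of 14 aldehyde dehydrogenases, 7 were higher in HCC15 and 4 in A427, with ALDH1A1, a retinal-oxidising enzyme, at 4867, 3783 and 3087 CPM in A427 and 723, 704 and 352 CPM in HCC15. Of 11 S100 genes, 6 were higher in HCC15 and 4 in A427, the latter falling to 2 without the A427 or the HCC15 siRNA 2 library or without the siRNA arm in the fit, with S100A16 at 0.137, 0.458 and 0.254 CPM and 72.3, 79.9 and 119 CPM and S100A6 at 343, 362 and 296 CPM and 123, 162 and 131 CPM. In the same order of HCC15 to A427, claudins were split 4 to 7 of 13, solute carriers 85 to 101 of 227, and LINC genes 15 to 35 of 62. At 4-fold or more these splits were 4 to 5, 25 to 45 and 13 to 14.

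By chromosome, the median log2 difference over all tested genes is given as a description, with no test between chromosomes. Median log2 differences were highest on chromosomes 15 (0.81), 9 (0.68) and 10 (0.48) and lowest on chromosomes 3 (-0.94), 18 (-0.91), 20 (-0.70) and 17 (-0.60). On chromosome 15, 67.8% of 472 tested genes were higher in HCC15 and 14.6% in A427, while on chromosome 3, 14.1% of 778 were higher in HCC15 and 69.4% in A427. Chromosome 8 (0.028) and chromosome 14 (0.036) lay near 0. Gene copy number was not measured.

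**Figure D5:**
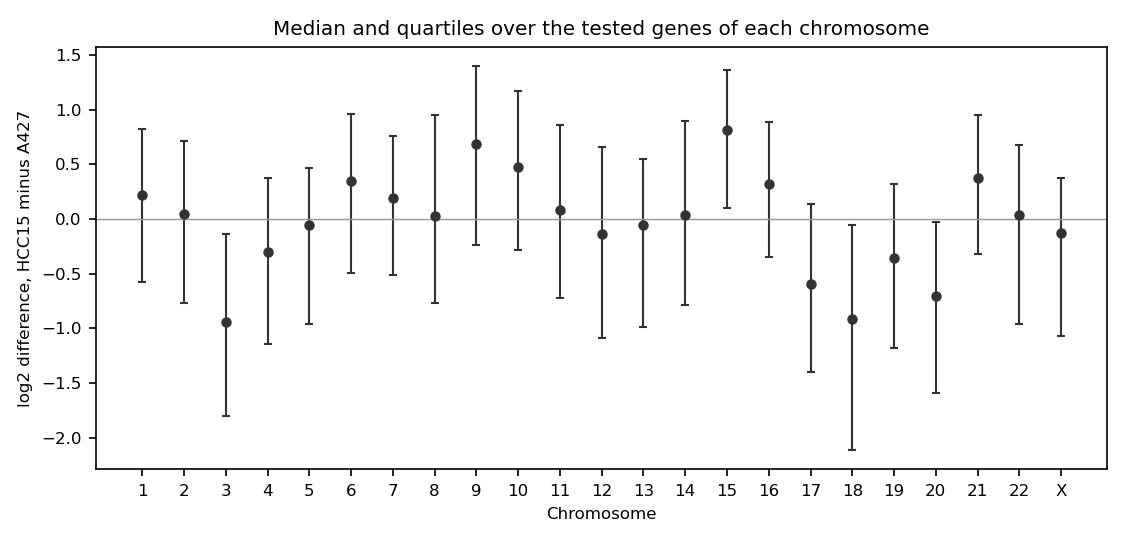
Median log2 difference, HCC15 minus A427, over the tested genes of chromosomes 1 to 22 and X, with bars from the lower to the upper quartile. Chromosomes 15, 9 and 10 lie highest and chromosomes 3, 18 and 20 lowest.

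The direction of the difference between the lines was compared over the 3 siRNA arms. Of 10592 genes with at least 10 CPM in a line, 9132 (86.2%) had the same direction in all 3 arms. The arm ratios of a gene ranged over a median of 0.36 on the log2 scale, and 664 genes ranged over at least 2-fold and 64 over at least 4-fold. VGF, a secreted neuropeptide precursor, was at 55.2, 137.5 and 57.7 CPM in A427 and 63.9, 79.6 and 330.7 CPM in HCC15 and did not pass (adjusted p = 0.31). F2RL2, a thrombin receptor, was at 0.479, 0.114 and 1.96 CPM in A427 and 1.9, 0.912 and 47.1 CPM in HCC15. ICOSLG, a T cell costimulator, was at 14.2, 20.4 and 18.2 CPM and 6.47, 3.72 and 1.13 CPM. ITGB8, an integrin chain, was at 36, 22.2 and 5.26 CPM in A427 and at most 3 reads in HCC15. SERF1A, SMN1 and SMN2 ranged widely too, but they lie in a duplicated region where reads may be split between copies.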

How the data were processed

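RNA from 6 libraries of A427 and HCC15 was sequenced after column purification with DNase and mRNA library preparation with a KAPA kit, per the labels' protocols. The authors aligned reads with STAR 2.5.3a and quantified them with RSEM 1.3.3 on hg19 after FastQC 0.11.1, per the submitters' processing notes; their gene annotation was not given in the sources used here. Deposited by the authors were 1 table of expected counts and 1 of TPM for 23686 gene symbols. From 5.75% to 6.29% of the expected counts per library were not whole and were rounded. TPM as deposited served only for alternatives.

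Genes that reached 10 reads in 2 or more libraries were fitted in edgeR 4.0.16 (R 4.3.3) with line and siRNA arm, TMM scaling, glmQLFit without the legacy setting and glmQLFTest, with Benjamini-Hochberg adjustment over 14481 genes and a threshold of 0.05. The siRNA number marks the same reagent in both lines and pairs the libraries: deviations from the line means correlated across genes at 0.47 (control), 0.46 (siRNA 2) and 0.55 (siRNA 4). No library pair was near-identical. Counts were also simulated with the same mean in both lines, no siRNA effect and 200 changed genes, each above 1 CPM. Over 14243 genes, 88% of 2-fold and 100% of 4-fold changes were recovered, with 8 false calls among 196. In the data 76.5% of tested genes passed, so these rates need not hold there.

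The 28 gene lists and 11 families were chosen with earlier results of these data known. Named genes were the mutation-linked genes, the 12 largest differences in each direction with at least 10 CPM in the higher line, up to 6 members past and 4 not past the threshold in each list, the 12 restricted genes per line with the highest CPM, and members of runs. AMOTL2, AXIN2, CDKN1A, CTGF, DLC1, FOXF2, GCLM, HMOX1, KRT15, MGMT, NQO1, PRAME, PRDX2, TXNRD1, VIM, the neighbouring genes, the arm-dependent genes and the marker genes near 0 were named after their values were seen. The rule of at least 4-fold was added after the data were seen. Gene order and chromosomes came from a RefSeq table on GRCh38.p14, which held 22678 of the symbols. Genes on chromosome Y are not named, and some genes that the rule picks are not reported here. Limma 3.58.1 and DESeq2 1.42.0 served as alternatives.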

Additional observations from a re-analysis of the deposited data

How the results depend on the processing

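The count of 11073 genes that differed between the lines was 9051 without the replicate block (siRNA arm), 10452 with DESeq2, 11055 with limma-voom and 9461 to 10588 when any 1 library was left out. Of 261 named genes past the threshold, 255 kept their direction and side under every one of the 15 alternatives that gave them a value. Genes without a value, such as those under the minimum of 50 reads, were not counted as lost there. The 6 exceptions included NRAS, EGR1, COL1A1, HIST1H2BD and HIST2H2BE. ERBB3, which did not pass in the fit of all libraries, reversed at log2 differences of -0.44 without A427 replicate 2 and -0.43 without HCC15 replicate 2, its values without 1 library running up to 0.33. On log2(TPM + 1), which understates low genes, 664 and 1039 genes were at least 4-fold higher in HCC15 and A427. Line-restricted genes numbered 157 (A427) and 123 (HCC15) with at least 5 CPM, 171 and 111 with 0 reads in the other line, and 555 and 397 with at most 10 reads, and runs then numbered 16. Library size alone, without TMM, moved the median of all genes by -0.10 and the share of calls that were higher in HCC15 from 48.6% to 44.5%. Of 1170 list counts under an alternative, 66 moved over 1.5 times. Without the block the members higher in HCC15 were 7 SWI/SNF subunits, 4 CREB targets, 1 p53 target, 3 oncofetal genes, 1 lung alveolar and airway gene and 5 histone genes, and 4 SWI/SNF subunits, 2 S100 genes and 0 histone genes were higher in A427. Histone genes higher in HCC15 also numbered 5 without A427 replicate 2, HCC15 replicate 2 or HCC15 replicate 3. A minimum of 50 reads left 14 protocadherins higher in A427, and log2(TPM + 0.1) left 9 collagens. Replicates 1, 2 and 3 are control, siRNA 2 and siRNA 4. Leaving out either line's library of the same replicate gives nearly the same fit, so such pairs of alternatives are not independent. There were 2 residual degrees of freedom and a single library per line and arm. These tests therefore cannot separate spread between cultures from siRNA effects that differ between the lines.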
